A study of Papio anubis with 40 samples.

Results

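The last serum draw of an experimental endometriosis series, at month 15 after inoculation, was compared with the first draw after inoculation, at month 3, within the same 8 olive baboons (Papio anubis). All libraries labelled with these months were taken: 8 at month 3 and 8 at month 15, 16 of the 40 in the series. Menstrual tissue is placed in the abdomen of this species to induce endometriosis, and the animals compared had all been inoculated and are labelled as given no treatment. They are PA8001, PA8003, PA8835, PA8872, PA8873, PA8912, PA8914 and PA8915, sampled with 0.5 mL of serum per draw. Animals without inoculation are not among the samples, so time since inoculation, age and the day of the draw cannot be told apart.

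Transfer RNAs fold into a cloverleaf in which an acceptor stem, closed by the unpaired bases that end in CCA, carries the amino acid, and an anticodon stem holds up a loop with the anticodon in its middle. Enzymes such as angiogenin cut in that loop, which leaves a long 5' and a long 3' piece, and other cuts give shorter fragments. Both kinds circulate in serum, where 5' pieces of glycine, valine and glutamate tRNAs are commonly the most abundant. In bulk serum RNA, fewer cells that release a fragment and less release per cell cannot be told apart.

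Distances below are counted from the base just before the anticodon, which is 0. Bases at -1 and 0 belong to the loop, bases -6 to -2 form the 5' strand of the anticodon stem, and the anticodon begins at 1. A 5' fragment that runs through the anticodon is shown for 4 abundant families, with the anticodon in capitals, since the results turn on the bases just before it. In the valine tRNA with anticodon AAC the first anticodon base is inosine in the mature tRNA and is read as G.
tRF-36-79MP9P9NH57S3UD (Val-AAC/CAC): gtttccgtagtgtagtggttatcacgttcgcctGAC
tRF-35-Q1Q89P9L8422YR (Gly-CCC): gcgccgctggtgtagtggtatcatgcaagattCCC
tRF-36-PS5P4PW3FJHPEZE (Lys-TTT): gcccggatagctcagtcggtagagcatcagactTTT
tRF-35-P4R8YP9LON4VN1 (Gly-GCC): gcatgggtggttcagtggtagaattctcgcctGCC

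Library totals ran from 1517359 to 5820533 counts at month 3 and from 1631205 to 3847831 at month 15, and a count of 0 leaves room for up to 3 counts, which is 0.631 to 1.75 on the scaled CPM scale (counts over a common library total). At month 15, PA8001 and PA8003 were the libraries least like the rest (correlation with the mean of the other libraries of the month 0.853 and 0.866). The scaling factor of the PA8003 library was 0.458, against 0.754 to 1.38 in the other 15, and a single Gly-CCC fragment held 48.1% of its counts. Values "without the 2 libraries" leave out both at month 15. The number after "tRF-" in a name is the length in nucleotides (nt), and a 5' fragment begins within 2 bases of the mature 5' end.

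Most fragments called higher at month 15 than at month 3 ended in the anticodon loop or near the CCA end, and most called lower ended in the anticodon stem or the acceptor stem. Of 2447 fragments tested with edgeR's quasi-likelihood test, animal as a block and Benjamini-Hochberg adjustment, 272 had an adjusted p under 0.05 (11.1%): 176 were higher (7.19%) and 96 lower (3.92%). Among the 176, 159 ended in the loop (-1 to 1) or at most 3 bases short of the CCA end (90.3%), against 30.3% of all fragments tested. Of the 96 lower fragments, 94 ended in the anticodon stem or 4 to 10 bases short of the CCA end (97.9%), against 57.6% of all tested. These end classes were drawn up after the calls had been seen, so their counts and medians are descriptions with no test. Length variants of the same tRNA come from the same animals and libraries and are not separate observations.

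The calls depended on single animals. No fragment passed in edgeR without the month 15 library of PA8003 (595 at an unadjusted p under 0.05), without animal PA8873 (684) or without PA8914 (614). Likewise 0 passed without the 2 libraries (422) or when only the 16 libraries were fitted (532). Without animal PA8003 23 passed, without PA8915 116, without PA8872 165, without PA8912 172 and without PA8001 175, and 151 passed without the month 15 library of PA8001. More passed without PA8835, 364 (216 higher, 148 lower). The scaling moved the split of calls too: 64.7% of the calls were higher with trimmed mean (TMM) scaling, 80.2% with relative log expression scaling (166 higher, 41 lower) and 97.9% with library totals (46 higher, 1 lower). TMM placed the median of all fragments at log2 -0.11 and library totals at 0.01, and the medians below can be read against these. For no fragment did the 8 values of month 15 lie wholly outside those of month 3 (0.0% of 2447).

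In 5' fragments the median change was below 0 for ends at -5 to -2 and above 0 from -1 on. At -6, the outermost stem base, it was above 0 (0.53, 10 tested, 7 above 0, 1 called higher). Fragments ending at -5 had a median log2 of -0.56 (171 tested, 20 called lower, 0 higher), those at -4 -0.27 (162 tested, 1 lower), those at -3 -0.41 (316 tested, 27 lower, 1 higher) and those at -2 -0.35 (574 tested, 31 lower, 1 higher). One base on, at -1, the median was 0.58 and 50 of 358 were called higher, with 0 lower. At 0 the median was 1.23, with 74 of 184 called higher, 0 lower and 181 above 0, and it was 0.78 without the 2 libraries. At 1 the median was 0.33 (31 tested, 1 higher) and fell to -0.21 without the 2 libraries. All 573 loop-ended 5' fragments together had a median of 0.75 (125 higher, 0 lower) and the 1233 stem-ended ones -0.38 (3 higher, 79 lower). With library totals the 2 medians were 0.82 and -0.23, and leaving out the 2 libraries they were 0.53 and -0.30.

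**Figure D1:**
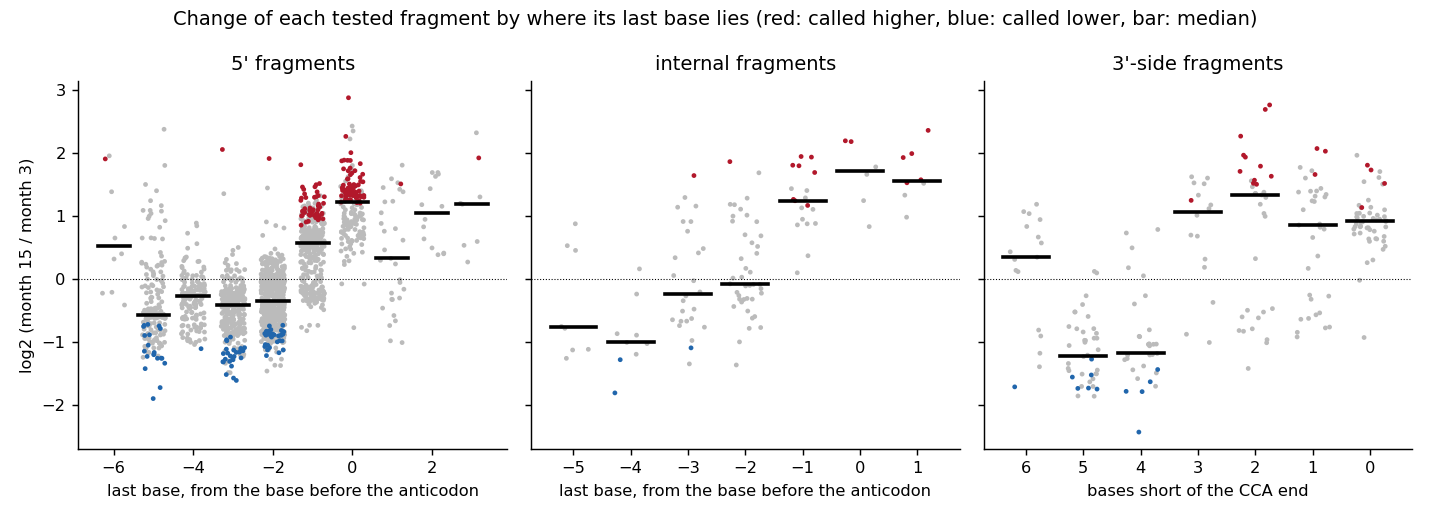
Log2 change from month 3 to month 15 (vertical axis) of each tested fragment by the position of its last base (horizontal axis), for 5' fragments, internal fragments and 3'-side fragments. Points are fragments, red called higher and blue called lower by edgeR, and bars are medians: in 5' fragments the median goes from -0.35 at -2 to 0.58 at -1 and 1.23 at 0.

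Since a 5' fragment's end also sets its length, fragments that begin elsewhere show the end without the start. Internal fragments that end at -1, 0 or 1 numbered 33, and all 33 were above 0 (median log2 1.41), with 15 called higher. Most came from 2 tRNAs: Glu-CTC gave 13 of the 33 (6 called higher) and Lys-CTT 11 (7 called higher). The 85 internal fragments that end in the stem had a median of -0.20, with 2 called higher and 3 lower. Without the 2 libraries the medians were 0.71 and -0.21. Lys-CTT went against this contrast: its 11 internal stem-ended fragments had a median of 1.19 (0.09 without the 2 libraries), with 10 above 0, and held both of the higher calls among internal stem ends. All 37 internal fragments called higher had a median length of 20 nt, but only 15 of them were loop-ended and another 15 ended at most 3 bases short of the CCA end. The 16 internal fragments called lower had a median of 30.5 nt, and the 5' fragments called higher 32 nt. By length, 5' fragments of 16-24 nt had a median of 0.41 (127 tested, 3 higher), which was 0.04 without the 2 libraries, those of 25-31 nt -0.33 (1373 tested, 11 higher, 80 lower) and those of 32-36 nt 0.79 (511 tested, 119 higher, 0 lower).

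A pair of internal Glu-CTC fragments shows the 2 sides of the boundary. Both lie within the same stretch of the 5' arm, and tRF-17-9N1EWJM ends in the first loop base. tRF-21-R718YKIS0, which ends at -4, stood at 12.3, 20.9 and 76.6 CPM at month 3 (lowest, median and highest of 8) and at 1.94, 13.4 and 23.3 CPM at month 15. The groups overlapped, and 0 of 8 animals were higher (log2 -1.28 ± 0.412 SE, adjusted p 0.0451 by edgeR). tRF-17-9N1EWJM, which ends at -1, stood at 9.05, 29.3 and 48.9 CPM at month 3 and at 26.4, 64.5 and 728 CPM at month 15. The highest value is that of PA8003, the groups overlapped, and 7 of 8 animals were higher (log2 1.80 ± 0.576 SE, adjusted p 0.0436 by edgeR, and 0.69 without the 2 libraries).

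On the 3' side of the tRNA the median change differed in sign between ends in the unpaired 3' end and ends in the first bases of the acceptor stem. Fragments that carry the complete CCA end had a median log2 of 0.92 (53 tested, 51 above 0, 4 called higher, 0 lower), and their share called, 7.55%, was near the 7.19% called higher over all fragments. As a share of a library's counts they were higher at month 15 in 6 of 8 animals (exact sign-flip permutation p = 0.125, adjusted 0.234). Summed over Asp-GTC, their log2 change was 0.21 (adjusted p 0.711 by edgeR). With the scaling factors of the fragment fit it was 0.82 (adjusted p 0.0932). Fragments 1, 2 and 3 bases short of the CCA end had medians of 0.87 (34 tested, 3 higher), 1.34 (33 tested, 11 higher) and 1.07 (16 tested, 1 higher or 6.25%; 0.65 without the 2 libraries). Ends 4 and 5 bases short, which lie in the acceptor stem, had medians of -1.18 (31 tested, 5 lower) and -1.22 (40 tested, 6 lower), with 0 higher. At 6 bases short the median was 0.35 (17 tested, 1 lower), and it was -0.57 without the 2 libraries. The medians of the ends 0 to 3 bases short and of those 4 or 5 bases short were 0.97 and -1.20 over 136 and 71 fragments, and 0.70 and -0.94 without these libraries.

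Asp-GTC, the tRNA for aspartate, held 78 of the 136 fragments that end at most 3 bases short: 76 were above 0 (median 1.14) and 18 were called higher. Its 16 fragments that end 4 or 5 bases short had a median of -0.96, with 1 called lower. The following are an Asp-GTC fragment of each kind and, of a tRNA that could not be assigned, another of each kind, with the last 2 bases in capitals. tRF-34-EH623K7SIR3DIY was chosen after its values were seen, as the only called Asp-GTC fragment ending in the acceptor stem.
tRF-34-M2OSRNLNKSEKH9: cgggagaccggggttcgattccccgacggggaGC
tRF-34-EH623K7SIR3DIY: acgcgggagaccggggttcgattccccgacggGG
tRF-16-K8E0KRB: cccggacgagccccCA
tRF-31-50SRRN2EK8E0D: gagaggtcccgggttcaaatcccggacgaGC
The Asp-GTC pair has the same length and overlaps over most of it, shifted by a few bases. The unassigned pair shares the stretch before the 3' end.

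tRF-34-M2OSRNLNKSEKH9, 2 bases short of the CCA end, stood at 4.05, 12.03 and 21.2 CPM at month 3 and at 6.97, 26.3 and 249 CPM at month 15 (lowest, median, highest). Its months overlapped, and 7 of 8 animals were higher (log2 1.71 ± 0.449 SE, adjusted p 0.0281 by edgeR, and 1.07 without the 2 libraries). tRF-34-EH623K7SIR3DIY, 5 bases short, stood at 22.8, 170 and 745 CPM at month 3 and at 26.7, 44.6 and 104 CPM at month 15. It was lower in 6 of 8 animals, with a wide month 3 range that spans all of month 15 (log2 -1.74 ± 0.574 SE, adjusted p 0.0468 by edgeR).

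tRF-16-K8E0KRB, with the complete end, stood at 0.0, 1.58 and 3.61 CPM at month 3 and at 1.21, 4.64 and 13.97 CPM at month 15, close to the limit of 3 counts in some libraries. It was higher in 7 of 8 animals (log2 1.81 ± 0.586 SE, adjusted p 0.0451 by edgeR). tRF-31-50SRRN2EK8E0D, 5 bases short, stood at 13.8, 24.8 and 132 CPM at month 3 and at 11.5, 14.9 and 27.0 CPM at month 15. It was lower in 7 of 8 animals, and the months overlapped at their low end (log2 -1.27 ± 0.419 SE, adjusted p 0.0464 by edgeR).

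Ratios of counts within a library need no scaling between libraries, and give the contrast of ends animal by animal, pooled over tRNAs. The log2 ratio of 3'-side fragments 0 to 3 bases short to those 4 to 10 bases short ran from -1.45 to 0.87 at month 3 (median -0.06) and from 0.16 to 1.33 at month 15 (median 0.73). It was higher at month 15 in 8 of 8 animals, by a mean of 0.95 ± 0.932 (SD, n = 8), and by 1.15 without animals PA8001 and PA8003. The tRNAs on its sides differ: Asp-GTC gave 18 of the 19 higher calls 0 to 3 bases short. It gave 1 of the 12 lower calls 4 to 10 bases short. Within Asp-GTC the medians by end differed in sign, as given above, but this ratio was not computed within a tRNA. How far it reflects the mix of tRNAs rather than their ends was not tested. For internal fragments the log2 ratio of loop to stem ends ran from -2.80 to -2.07 at month 3 and from -2.25 to -0.20 at month 15, and was higher in 7 of 8 animals, by 1.25 ± 0.880. For all 5' fragments it ran from -3.05 to -1.24 at month 3 and from -1.64 to 0.92 at month 15, higher in 7 of 8 by 1.20 ± 1.03. Without PA8001 and PA8003 the last 2 differences were each 0.98. PA8872 was the animal that went the other way in both, and in PA8835 the 5' ratio was nearly level (-1.67 and -1.64).

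**Figure D2:**
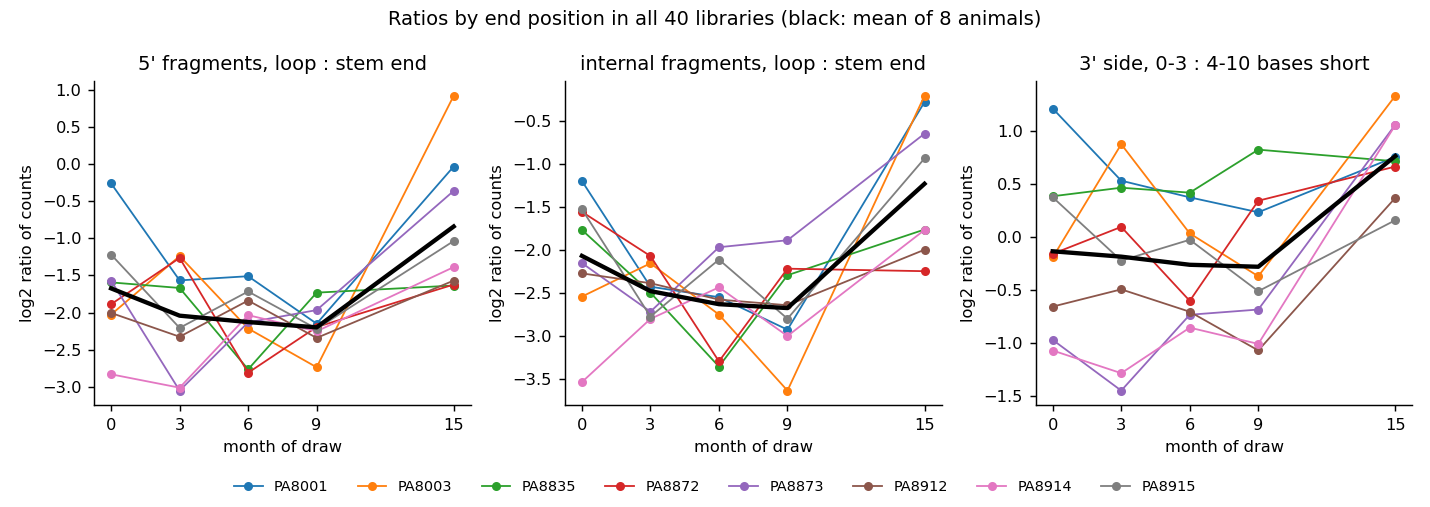
Log2 ratios of counts within each library (vertical axis) by month of draw (horizontal axis) for 5' fragments ending in the loop against the stem, internal fragments likewise, and 3'-side fragments 0-3 against 4-10 bases short of the CCA end. Thin lines are animals and the black line is the mean of 8, which for 5' fragments goes from -2.04 at month 3 to -0.84 at month 15.

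Placed beside the other draws, month 15 had the highest mean of these ratios. For 5' fragments the means were -1.67 ± 0.740 (SD, n = 8) at month 0, -2.04 ± 0.724 at month 3, -2.13 ± 0.466 at month 6, -2.20 ± 0.289 at month 9 and -0.84 ± 0.932 at month 15. For the 3' side they were -0.13 ± 0.773, -0.19 ± 0.848, -0.26 ± 0.520, -0.28 ± 0.680 and 0.76 ± 0.383. Comparisons of month 15 with the other months share its libraries, and are given side by side only. The median log2 change of the 573 loop-ended 5' fragments was 0.57 for month 15 against month 0 and -0.16 for month 3 against month 0, and that of the 1233 stem-ended ones -0.22 and 0.18.

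Within single families the ratio of long (32 nt or longer) to short (25-31 nt) 5' fragments was tested. This divides by length and only in part by end: the 31 nt members of Gly-CCC and Gly-GCC already end in the loop, and for Gly-GCC the mean difference was 1.098 when split by end. The ratio by length was higher at month 15 in 7 of 8 animals for Gly-CCC (1.52 ± 1.24 SD on the log2 scale, exact sign-flip permutation p = 0.0156, n = 8), Glu-CTC (1.25 ± 1.02, p = 0.0234), Val-AAC/CAC (0.94 ± 0.865, p = 0.0234) and Gly-GCC (1.43 ± 1.53, p = 0.0312). For Lys-TTT it was higher in 6 of 8 (0.94 ± 1.01, exact p = 0.0469). Adjusted over all 25 library measures, these p-values were 0.0977 for the first 4 and 0.130 for Lys-TTT, so that no measure passed; with 8 animals the exact test can go no lower than 0.00781. Without PA8001 and PA8003 the differences were 1.39, 1.11, 0.76, 0.99 and 0.88, in a design whose smallest exact p is 0.0312. The result depended on the cut: with long fragments counted from 33 nt, 4 of these ratios were classed as weaker and 1 as the same. Counted from 31 nt, 2 were weaker and 3 the same. Without the most abundant fragment of each library, 20 of the 25 measures were the same, 3 weaker and 2 stronger.

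The size of the change differed between animals. For Gly-CCC the ratio went from -3.82 to -0.24 in PA8873 and from -3.77 to -1.33 in PA8914, the 2 animals lowest at month 3. In PA8003 it went from -1.31 to 1.06 and in PA8001 from -1.76 to -0.29. PA8835 stayed at -2.15 and -2.19. PA8835 was also the exception for Glu-CTC (-1.07 and -1.15), while PA8872 was the exception for Val-AAC/CAC (-1.12 and -1.67) and Gly-GCC (-5.38 and -6.48).

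**Figure D3:**
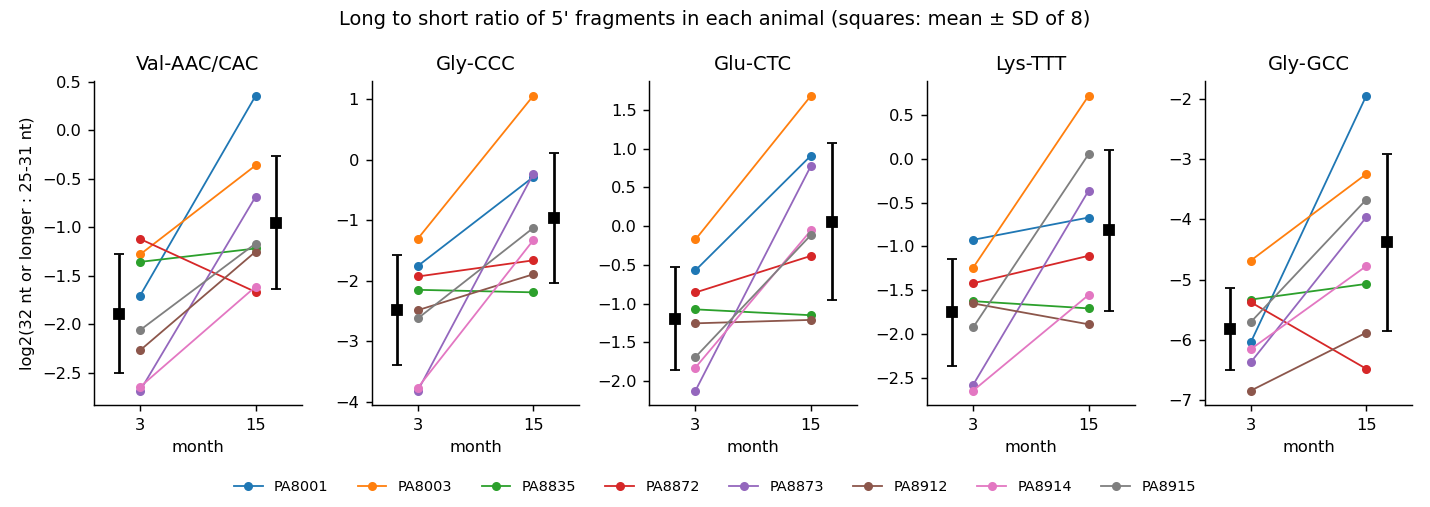
Log2 ratio of counts of 5' fragments of 32 nt or longer to those of 25-31 nt (vertical axis, each family on its own scale) at months 3 and 15. Lines join the 2 libraries of an animal and black squares are means with SD over 8 animals; the mean for Gly-CCC goes from -2.48 to -0.96.

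As shares of a library, fragments of 32-36 nt held 10.9%, 20.5% and 29.0% of counts at month 3 (lowest, median, highest) and 23.7%, 29.5% and 63.1% at month 15. Only PA8872 went down, and the months overlapped (15.2 ± 14.03 points higher, exact p = 0.0234, adjusted 0.0977, n = 8). Fragments of 30-31 nt held 45.4%, 51.0% and 60.3% at month 3 and 21.4%, 46.3% and 50.9% at month 15. They were lower in 7 of 8 animals (by 10.2 ± 8.61 points, exact p = 0.0156, adjusted 0.0977). The share of all 5' fragments, 99.2% ± 0.294 at month 3 and 98.96% ± 0.525 at month 15, was higher in 4 animals and lower in 4.

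The step can be followed base by base in a nested series, where each fragment adds bases to the same start. In Gly-CCC the log2 change was -0.75 ± 0.373 (SE) at 27 nt, -0.27 ± 0.281 at 29 nt, -0.01 ± 0.287 at 30 nt, 0.84 ± 0.290 at 31 nt and 1.45 ± 0.346 at 32 nt, the last of which passed (adjusted p 0.0281 by edgeR). In Val-AAC/CAC it was -1.18 ± 0.375 at 30 nt (adjusted p 0.0436), -0.84 ± 0.326 at 31 nt, -0.22 ± 0.330 at 32 nt and 0.91 ± 0.444 at 33 nt. Its 36 nt member, which runs through the anticodon, passed as higher (1.93 ± 0.545, adjusted p 0.0319 by edgeR). In Lys-TTT the 32 nt member passed (0.96 ± 0.291, adjusted p 0.0392, and 0.60 without the 2 libraries) and in Gly-GCC the 32 nt member (2.01 ± 0.518, adjusted p 0.0281). No member of the Glu-CTC series passed, although its values ran from -0.96 ± 0.464 at 29 nt to 0.66 ± 0.370 at 32 nt. The shortest members departed from this order. The 25 and 26 nt fragments of Gly-GCC were called higher (1.49 ± 0.462 and 1.91 ± 0.598), in 6 and 5 of 8 animals, and were 0.40 and 1.20 without the 2 libraries. The 26 nt one ends at -6, in the stem. The 27 nt members of Val-AAC/CAC (1.39 ± 0.674) and Lys-TTT (1.96 ± 0.728), which end at -6 too, were above 0 without passing. So were their 28 nt members at -5, also in the stem (0.83 ± 0.460 and 1.25 ± 0.557), the last larger than the 32 nt member of Lys-TTT that passed.

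**Figure D4:**
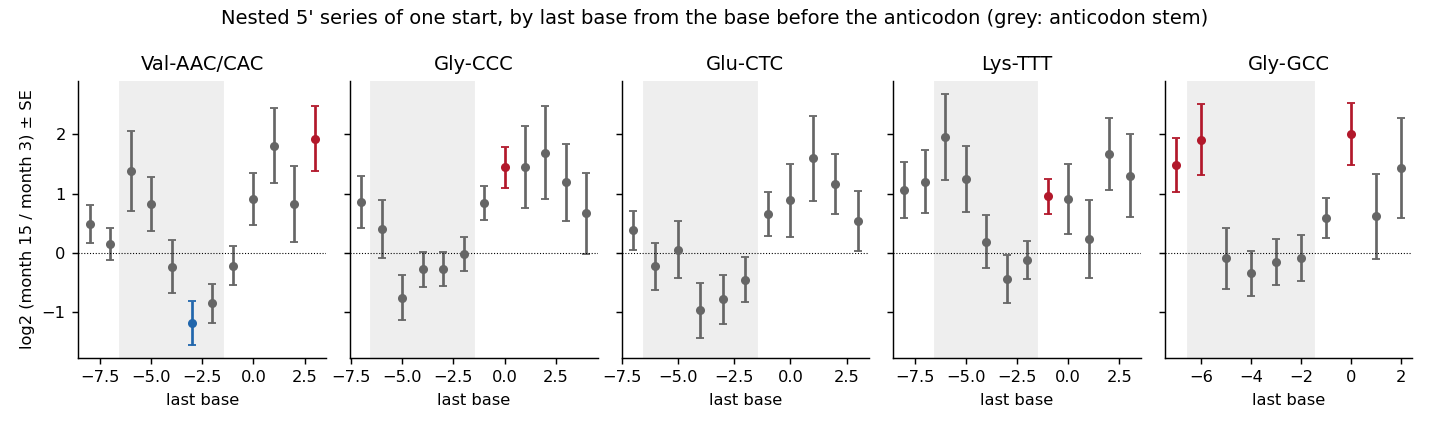
Log2 change from month 3 to month 15 with its standard error (vertical axis) for nested 5' fragments of 5 families by the position of the last base from the base before the anticodon (horizontal axis). The grey band marks the anticodon stem, red and blue points passed as higher or lower, and the Gly-CCC series goes from -0.75 at -5 to 1.45 at 0.

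Gly-CCC gave more of the higher calls than any other family, 72 among 5' fragments and 1 among internal ones. Loop-ended 5' fragments of Gly-CCC numbered 71 called higher among 137 tested (51.8%, against 7.19% over all fragments, median log2 1.24). Stem-ended ones numbered 20 called lower among 360 (5.56%, median -0.29), near the 3.92% called lower over all fragments. The most abundant of them, tRF-32-Q1Q89P9L8422Q, ends in the TT just before the anticodon. It is shown with 2 stem-ended members of its series, the last 2 bases in capitals.
tRF-27-Q1Q89P9L842: gcgccgctggtgtagtggtatcatgCA
tRF-30-Q1Q89P9L8422: gcgccgctggtgtagtggtatcatgcaaGA
tRF-32-Q1Q89P9L8422Q: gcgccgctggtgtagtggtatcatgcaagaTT
tRF-32-Q1Q89P9L8422Q held 2.49%, 5.21% and 13.2% of a library's counts at month 3 and 6.75%, 9.79% and 48.1% at month 15 (lowest, median, highest). It was higher in 8 of 8 animals with overlapping ranges, and PA8003 was highest in both months. Its log2 change of 1.45 passed under each of the 3 scalings. It was 0.90 without the month 15 library of PA8003 (adjusted p 0.128) and 0.80 without both libraries (adjusted p 0.255).

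The stem-ended members, which held more of the counts at month 3, did not pass. tRF-27-Q1Q89P9L842 held 5.59%, 10.6% and 20.5% of counts at month 3 and 3.04%, 8.35% and 14.1% at month 15 (log2 -0.75, adjusted p 0.159). tRF-30-Q1Q89P9L8422 held 3.29%, 6.81% and 12.2%, then 3.51%, 7.36% and 10.5% (log2 -0.01, adjusted p 0.976). A variant of the 27 nt fragment with another first base, tRF-27-E1Q89P9L842, was lower in 8 of 8 animals, with 562, 951 and 1675 CPM at month 3 and 289, 546 and 950 CPM at month 15 (log2 -0.89 ± 0.288 SE, adjusted p 0.0451). The internal Gly-CCC fragment tRF-29-3IRW18V6XOIE, which starts 3 bases later and ends on the same TT as the 32 nt fragment, had a median of 4.96 CPM, then of 12.3 CPM; its log2 change was 2.20 ± 0.544 (7 of 8 animals higher, adjusted p 0.0281), and 1.08 without the 2 libraries.

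Valine fragments gave most of the lower calls. Of 180 stem-ended 5' fragments of Val-AAC/CAC, 51 were called lower (median log2 -0.83, 6 above 0), and the 156 loop-ended ones had a median of 0.07 with 1 called higher. The stem-ended median was -0.61 with library totals and -0.56 without the 2 libraries. With library totals only 1 fragment of any family was called lower. tRF-30-79MP9P9NH57S, which ends at -3, stood at 2360, 8314 and 12590 CPM at month 3 and at 900, 3486 and 5789 CPM at month 15. It was lower in 7 of 8 animals, all but PA8835, and the months overlapped (adjusted p 0.0436). tRF-31-79MP9P9NH57SD, the most abundant fragment at month 3, held 12.5%, 19.8% and 27.7% of counts at month 3 and 2.08%, 16.9% and 23.8% at month 15. It was lower in 8 of 8 animals on the CPM scale and did not pass (log2 -0.84, adjusted p 0.0747). Whether Gly-CCC and Val-AAC/CAC differed in their change was not tested.

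The remaining families differed in their medians by end. For Lys-TTT, 33 of 69 loop-ended 5' fragments were called higher (median 0.99) and 0 of 145 stem-ended ones were called (median -0.12). Loop-ended fragments of Glu-TTC (10 of 26 called higher, median 1.05) and Gly-GCC (9 of 43, median 0.87) were above their stem-ended ones (medians -0.47 and -0.05). Glu-CTC had medians of 0.58 over 76 loop-ended and -0.63 over 148 stem-ended fragments, with 0 and 1 called (0.54 and -0.39 without the 2 libraries). Loop-ended 5' fragments of Val-TAC were below 0 in the median (-0.21 over 13, against -0.79 over 16 stem-ended). Asp-GTC had the opposite order, with -0.05 over 9 loop-ended and 0.90 over 6 stem-ended ones (-0.39 and 0.03 without the 2 libraries). Lys-CTT had calls in both directions among stem ends: 2 fragments that start 2 bases late were called higher, among them tRF-29-3JVIJMRPFQIX (log2 1.92 ± 0.519, adjusted p 0.0281, and 0.98 without the 2 libraries), next to 3 stem-ended ones called lower, among them tRF-30-PSEP4PW3FJIK (log2 -1.18 ± 0.325, adjusted p 0.0295).

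Of the called fragments picked by rule, 3 more show single members. tRF-32-P4R8YP9LON4V3 of Gly-GCC, which ends at 0, stood at 164, 430 and 636 CPM at month 3 and at 478, 932 and 4147 CPM at month 15, with all but PA8872 higher and the highest values in PA8003 and PA8001. Without these libraries its log2 change of 2.01 was 0.66. tRF-18-MBQ4NKDJ of Met-CAT, internal and ending at 1, went from a median of 5.45 to 17.3 CPM (log2 1.53 ± 0.464, adjusted p 0.0392), and was 1.23 without them. tRF-31-86J8WPMM1E8Y0 of Glu-TTC, which ends at -2, went from a median of 5.54 to 2.43 CPM and was lower in 8 of 8 animals (log2 -1.17 ± 0.347, adjusted p 0.0359).

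**Figure D5:**
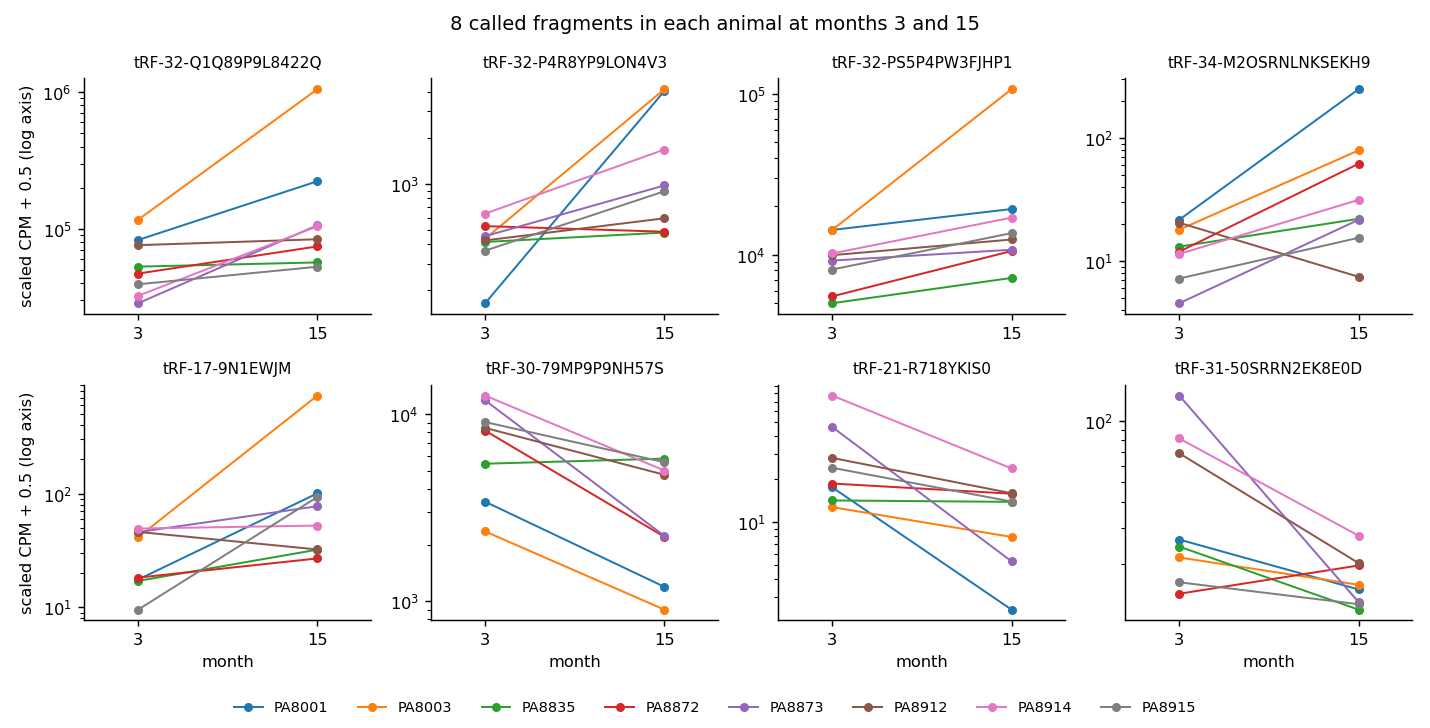
CPM plus 0.5 (log axis) of 8 called fragments at months 3 and 15, a line per animal. The upper row and the first panel of the lower row were called higher and the other 3 lower, and for tRF-32-Q1Q89P9L8422Q all 8 lines go up, PA8003 being highest at both months.

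No tRNA family passed the test as a whole. Of 22 families, 0 passed in edgeR (0.0%), with 4 at an unadjusted p under 0.05, and DESeq2 and limma-voom called 0 too. Without a filter on low counts 3 of 28 passed, and 1 passed when only the 16 libraries were fitted or without animal PA8872. Arg-TCT, which rests on few anticodon reads, had the smallest p, at 35.8 ± 24.5 CPM at month 3 and 78.7 ± 50.6 at month 15 (SD, n = 8, log2 1.26 ± 0.443 SE, adjusted p 0.140, higher in 7 of 8, and 0.62 without the 2 libraries). Val-AAC/CAC held 43.0% ± 10.3 of counts at month 3 and 34.5% ± 15.6 at month 15, and Gly-CCC 40.2% ± 10.3 and 46.2% ± 15.3. Of 75 sums by family, class and length, 8 passed (10.7%), 1 higher and 7 lower. This split followed the scaling: with library totals 6 were higher and 0 lower, and with the factors of the fragment fit, added after the data were seen, 5 were higher and 0 lower. The sum of Gly-GCC 5' fragments of 32 nt or longer was called higher in all 3 (log2 1.08, 1.80 and 1.87), and was 0.62 without the 2 libraries (adjusted p 0.467).

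Lists of fragments known from other work are read against the 11.1% called and the median of -0.11 over all fragments. Among 1493 tested 5' fragments of tRNAs abundant in serum, 89 were called higher and 75 lower (11.0%, median log2 -0.17). Glycine tRNAs had 85 higher and 20 lower among 835 (12.6%, median -0.06, and 0.03 with library totals). Fragments of tRNAs described to bind YBX1, an RNA-binding protein that tRNA fragments can draw away from messenger RNAs, had 35 higher and 8 lower among 512 (8.40%, median -0.05, and 0.08 with library totals). From Asp-GTC, His-GTG and Lys-CTT, whose 5' pieces depend on sex hormones in hormone-responsive cells, 3 were higher and 3 lower among 134 (4.48%, median -0.23). Those that begin with a run of guanines had 1 higher and 1 lower among 48 (4.17%, median -0.29). The 53 tested 3' CCA fragments, of 4786 in the table, had 4 higher and 0 lower (7.55%, median 0.92).

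Library depth moved with some of these values. The totals of PA8873 and PA8914, the animals lowest in the long to short ratio of Gly-CCC at month 3, went from 4252838 and 5820533 counts to 1631205 and 3024482. Others did not follow this: PA8003 went from 1517359 to 3847831 counts while its Gly-CCC ratio rose from -1.31 to 1.06. PA8001 (1999362 and 1914341 counts) and PA8912 (3405643 and 3419639) were nearly level, and their ratios rose from -1.76 to -0.29 and from -2.49 to -1.90. With the library total as a covariate, edgeR called 188 fragments higher and 49 lower, 211 of them shared with the 272. Beyond that fit, its part in the results was not tested.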

How the data were processed

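Small RNA from serum was sequenced with adapters ligated to both ends and molecular identifiers, per the labels, which also ask for an RNA integrity number of at least 7. The authors deposited unscaled counts, 1 row for each distinct fragment, and a table of sequences. No source used here gives the aligner, the tRNA reference or whether identifiers were collapsed. The submitters' processing notes name R 4.5.0, edgeR and limma without a role. The limit of 3 counts covers counting error only. The ± SE values also take in variation between libraries beyond counting error, and the ± SD values are spreads over animals.

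Of 60201 lines, 1614 without an ID (0.0805% of counts) were left out, which left 58587 fragments. Families were read from anticodons in fragments of at least 42 nt, and fragments within 2 mismatches over the first 31 bases joined them; 99.5% of counts had a family. Lys-TTT and Arg-TCT rest on fewer than 10 anticodon reads each. Internal ends were placed by exact match in longer 5' fragments. The distance from the CCA end was read by matching the last 12 bases to fragments ending in CCA; whether these are mature 3' ends was not checked. Genome positions of the tRNA genes are not analysed here.

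Counts were fitted with edgeR 4.0.16 in R 4.3.3: filterByExpr with a minimum count of 10, TMM scaling, a robust quasi-likelihood fit of all 40 libraries, month as a factor and animal as a block, contrast month 15 minus month 3, Benjamini-Hochberg adjustment, threshold 0.05. SE is the log2 change over the root of the F statistic. The test was run on simulated data first. CPM is scaled by TMM and can exceed the library's share. Library measures were compared by flipping the signs of the 8 animals' differences (exact permutation test, two-sided). The same animals were drawn at both months, which pairs the libraries; deviations from month means correlated at a mean of 0.175 within animals (4 of 8 above 0.1) and -0.0206 between them. With the block, edgeR's biological coefficient of variation was 0.500, and 0.587 without.

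Named fragments passed, moved alike in 7 or more of the 8 animals and were the most abundant of their family, class and length group, up to 12 per direction by size of change (21 in all); others are the 10 most abundant, the nested series and the 3 most abundant of each list. Members, lists and rules were chosen with earlier results of these data known. Alternatives were library totals, relative log expression, DESeq2 1.42.0, limma-voom 3.58.1, other filters, no block, fewer libraries, each animal left out and a depth covariate. For library measures they were animals left out, other length cuts and the most abundant fragment of each library left out.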

Additional observations from a re-analysis of the deposited data

Results flagged for a closer look

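In 128 groups of 8 libraries, an end value lay farther from its neighbour than Dixon's test allows at 95% in 12; chance alone flags about 1 group in 20. Values are CPM for fragments. At month 3, PA8001 was far below the others for tRF-32-P4R8YP9LON4V3 (164) and tRF-29-3JVIJMRPFQIX (0.461), PA8914 above them for tRF-20-RKIP4OI3 (14.3), PA8873 for tRF-30-RK9P4P9L50MV (10.8) and PA8872 for tRF-32-79MP9P9NH57SJ (155974). At month 3 PA8003 also had the highest share of counts in fragments of 37 nt or longer (0.271%) and in 3' CCA fragments (0.221%). At month 15, PA8003 was far above the others for tRF-17-9N1EWJM (728). PA8001 at month 15 had the longest Val-AAC/CAC 5' fragments (mean 31.7 nt), the lowest share of 5' fragments (97.7%) and the highest share of internal ones (1.90%), and PA8872 had the shortest Gly-GCC 5' fragments (29.1 nt).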

How the results depend on the processing

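The 272 calls over fragments became 47 with library totals, 518 in DESeq2, 178 in limma-voom, 111 without a filter on low counts, 181 without the replicate block, 151 without the month 15 library of PA8001 and 0 without that of PA8003, without both or with only the libraries of months 3 and 15; leaving out each animal gave 0 to 364. Families had 0 calls, 3 without a filter and 1 with only the libraries of months 3 and 15, and 0 to 1 with an animal left out. The 8 calls over sums became 13 with relative log expression, 21 in DESeq2 (16 of the 75 had no adjusted p there), 1 without the replicate block, 1 with the depth covariate, 5 with the factors of the fragment fit, 0 without either or both of the month 15 libraries of PA8001 and PA8003 or with only months 3 and 15, and 0 to 11 with an animal left out. Blocked and unblocked fits shared 125 calls.

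Among the named fragments, signs changed for tRF-30-Q1Q89P9L8422 (-0.015 as reported, 0.056 with library totals, 0.013 at a minimum count of 30, 0.17 without the block, 0.080 with the depth covariate), tRF-31-PS5P4PW3FJHPB (0.0035 without the block, 0.038 with the covariate) and, among library measures, the share of internal fragments (-0.016 points without PA8001 and PA8003). Uncalled sums changed sign with library totals too, among them Val-AAC/CAC 5' fragments of 32 nt or longer (-0.60 to 0.12) and internal Asp-GTC ones (-0.28 to 0.38). With each animal left out, the first ran from -0.13 to 0.13, the second from -0.25 to 0.19, tRF-32-79MP9P9NH57SJ from -0.36 to 0.12, and the shares of internal fragments, Glu-CTC and Gly-GCC from -0.028 to 0.20, -0.19 to 1.62 and -0.13 to 0.86 points. The 21 named fragments that passed kept their direction in every alternative in which they were tested. In all 5 nested series the mean from -1 on exceeded that of -5 to -2 under each alternative. These means leave out the stem ends at -6. There the reported changes were 1.39 in Val-AAC/CAC, 0.40 in Gly-CCC, -0.22 in Glu-CTC, 1.96 in Lys-TTT and 1.91 in Gly-GCC. At most 2 of the 6 list medians changed sign, under library totals, where 4 kept it. Counts of fragments near 3 per library limit fold sizes. The causes of these changes were not tested.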

Other observations

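Further groups of fragments are given as values. The 16-24 nt 5' fragments of Gly-CCC, Gly-GCC, Lys-TTT and Glu-TTC had median log2 changes of 0.85 (12 tested), 0.96 (8), 1.13 (6) and 0.68 (8), and leaving out PA8001 and PA8003 at month 15 these were 0.15, 0.28, 0.44 and 0.29. By last base, the 332 tested 5' fragments of 25-36 nt that end in T had a median of 0.91 (90 called higher, 1 lower), and those ending in G -0.41 over 451 (1 higher, 28 lower), in A -0.26 over 404 (2 higher, 23 lower) and in C -0.09 over 697 (37 higher, 28 lower). The last base and the position of the end go together in these tRNAs, and their parts were not tested.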
